A study of Mus musculus with 2 samples.

Results

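Developmental identity transcription factors are the DNA-binding proteins, and a few of their partners, that set up the cell types of the forebrain in the embryo and that many adult neurons go on expressing. The set described here holds 47 genes of 27 families, taken by symbol from the 32285 genes counted in each library. They were followed in nuclei with 200 to 7500 genes, at most 5% mitochondrial UMIs and at least 2000 UMIs, where a UMI (unique molecular identifier) stands for 1 captured RNA molecule. That left 20952 nuclei, 11040 of them from sham mice (US-) and 9912 from mice that had received ultrasound (US+).

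The study asked which neurons of the hypothalamic preoptic area (POA), a centre of body temperature control, and which of their genes answer to ultrasound aimed at it. Wild-type mice aged 6 to 9 weeks were given sham treatment or ultrasound, and tissue was taken about 1 h later. In both groups the POA of 4 mice was pooled, and nuclei positive for DAPI and for NeuN, a protein of neuronal nuclei, were sorted and counted by 3′ single-nucleus RNA sequencing. Each group was thus 1 library of pooled mice, which leaves no spread between animals, so no test between US+ and US- was possible and every interval below covers counting error only. The labels give no strain for these pools.

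Forebrain neurons largely inherit their transmitter from the zone in which they were born. DLX factors switch on the GABAergic programme of the ganglionic eminences and of the prethalamic and anterior hypothalamic zones, while Sim1 and Otp are needed for glutamatergic and neurosecretory neurons of the paraventricular and supraoptic nuclei. LIM-homeodomain factors such as Lhx6 and Lhx8, zinc-finger factors such as Bcl11b and forkhead factors such as Foxp2 then divide these neurons into finer types, and most of these proteins act in combinations.

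The promoters of a pair from each side are shown because they lay on opposite sides in both libraries, Lhx6 and Lhx8 with GABAergic nuclei and Sim1 and Otp with glutamatergic ones. RefSeq windows of 250 bases upstream of a start site on GRCm38.p6 were matched by symbol for 37 of the 47 members. The windows lie at chr2:36105409-36105658 on the minus strand (Lhx6), chr3:154330561-154330810 on the minus strand (Lhx8), chr10:50895401-50895650 on the plus strand (Sim1) and chr13:94875386-94875635 on the plus strand (Otp), with CG dinucleotides in capitals.
Lhx6: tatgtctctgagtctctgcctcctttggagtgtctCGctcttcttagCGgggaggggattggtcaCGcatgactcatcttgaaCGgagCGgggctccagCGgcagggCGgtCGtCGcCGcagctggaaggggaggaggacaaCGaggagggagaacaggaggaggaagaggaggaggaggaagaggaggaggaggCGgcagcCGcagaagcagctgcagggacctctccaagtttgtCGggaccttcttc
Lhx8: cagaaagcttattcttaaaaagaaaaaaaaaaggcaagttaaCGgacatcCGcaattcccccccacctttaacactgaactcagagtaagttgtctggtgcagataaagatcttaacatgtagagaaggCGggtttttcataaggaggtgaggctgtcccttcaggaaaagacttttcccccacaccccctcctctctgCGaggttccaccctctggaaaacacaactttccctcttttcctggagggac
Sim1: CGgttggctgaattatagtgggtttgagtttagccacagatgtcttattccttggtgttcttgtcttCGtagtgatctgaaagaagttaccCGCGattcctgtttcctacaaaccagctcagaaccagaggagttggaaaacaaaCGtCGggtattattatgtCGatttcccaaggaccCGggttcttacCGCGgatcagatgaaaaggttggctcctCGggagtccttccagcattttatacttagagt
Otp: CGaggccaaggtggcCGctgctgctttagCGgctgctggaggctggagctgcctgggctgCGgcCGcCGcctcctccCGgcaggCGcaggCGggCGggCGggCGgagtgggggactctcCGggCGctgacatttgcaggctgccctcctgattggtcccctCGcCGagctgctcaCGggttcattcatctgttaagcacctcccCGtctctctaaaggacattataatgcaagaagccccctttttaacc

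CG dinucleotides numbered 14 in the Lhx6 window, 4 in that of Lhx8, 11 in that of Sim1 and 18 in that of Otp. The median over the members' windows was 11 against 6 over all 32851 RefSeq windows, of which 92.1% held at least 1. Neither the homeodomain core TAATTA, found on either strand in 4.84% of all windows, nor the NKX2 core CAAGTG, found in 11.6%, occurred in these 4.

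The kept nuclei held 98904011 UMIs in US- and 84857570 in US+, with medians of 7664 and 7376 per nucleus. A nucleus was called GABAergic with at least 1 UMI of Gad1 or Gad2 (the enzymes that make GABA) and none of Slc17a6 (the vesicular glutamate transporter VGLUT2), and glutamatergic with the reverse. This gave 8150 GABAergic and 720 glutamatergic nuclei in US- and 6323 and 871 in US+, while 681 and 939 held both signals and 1489 and 1779 held neither. Nuclei with at least 3 of 8 striatal markers, called striatal-type here, made up 25.3% of US- and 11.7% of US+ nuclei. The gap moved with the gate: at 2 of 8 markers the shares were 55.6% and 44.3%, and at 4 of 8 they were 11.1% and 3.38%. Treatment, pooled mice and dissection cannot be told apart in that gap. Summed over its list, each marker class was detected in both libraries with none of its genes at 0: the striatal list was lower in US+ (ratio in CPM, a gene's UMIs scaled to a common library total, 0.707, 0 of 8 genes higher), the astrocyte list higher (1.94, 8 of 8) and the oligodendrocyte list higher (1.83, 7 of 8), against 0.934 for the neuronal list, which stood at 3896 and 3639 CPM in these NeuN-sorted nuclei. The libraries shared 29 cell barcodes.

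All 47 factors were detected in both libraries. Shares were taken after random thinning of every nucleus to 2000 UMIs, since depth differed between nuclei. At that depth the median share of nuclei with a factor was 3.82% in US- and 3.84% in US+. In US-, 13 factors were seen in at least 10% of nuclei, 23 in 1 to 10% and 11 in under 1%, and in US+ the counts were 12, 26 and 9. A typical nucleus held a median of 4 of the 47 factors in each library, with a mean of 4.44 ± 1.86 (SD over 11040 nuclei) in US- and 4.11 ± 1.77 (SD over 9912 nuclei) in US+. Nuclei with no factor at this depth made up 0.661% and 0.565%.

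**Figure D1:**
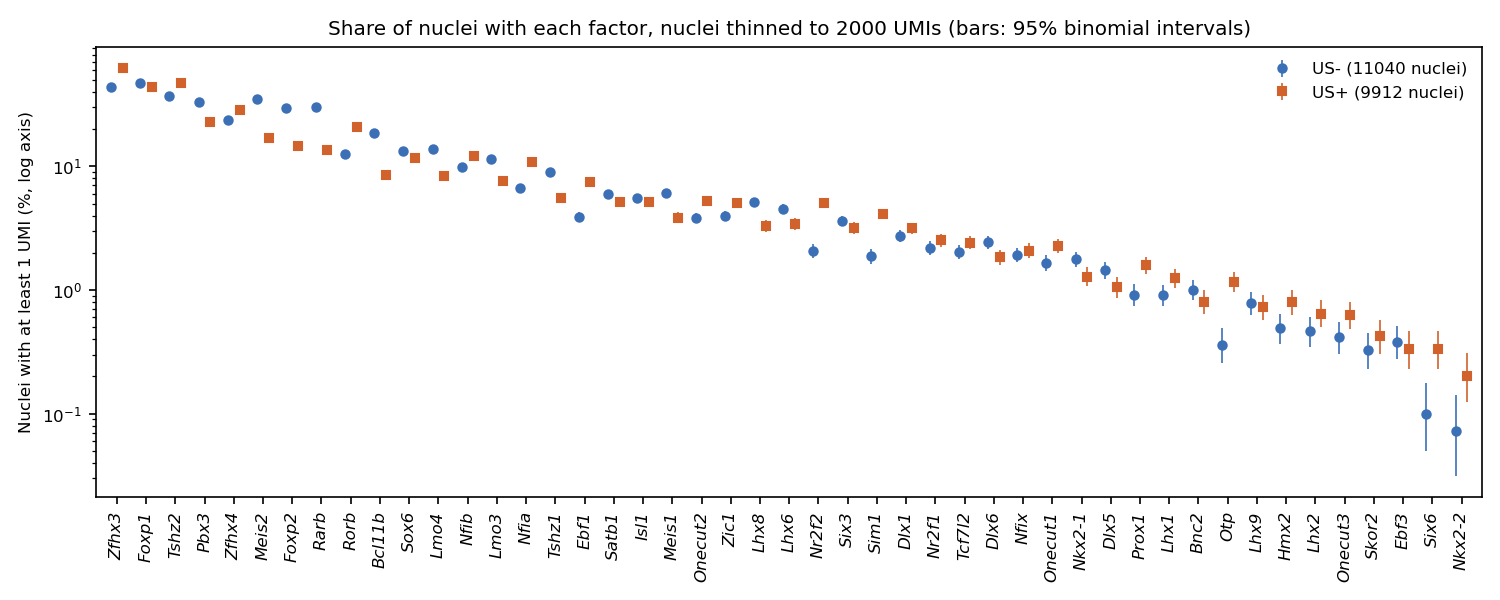
Share of nuclei with at least 1 UMI of each factor after thinning to 2000 UMIs, in percent on a log axis, for the US- library (circles) and the US+ library (squares), with exact 95% binomial intervals. Foxp1 is highest in US-, at 47.55%, Zfhx3 is highest in US+, at 62.1%, and Nkx2-2 is lowest in both, at 0.0725% and 0.202%.

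The factors seen in the largest number of nuclei were large zinc-finger, forkhead and TALE-type genes. Zfhx3, a homeobox zinc-finger protein active in the suprachiasmatic nucleus, was found in 43.9% (95% interval 43.0 to 44.8%) of US- and 62.1% (61.1 to 63.0%) of US+ nuclei. Foxp1, a forkhead repressor, was found in 47.6% and 43.6%, and Tshz2, a teashirt zinc-finger protein, in 36.8% and 47.2%. Pbx3, a TALE homeodomain partner of HOX and MEIS proteins, was found in 33.2% and 23.0%, and Zfhx4, the close relative of Zfhx3, in 23.8% and 28.5%. These 5 ranked highest by the mean of both libraries, and their order says nothing of transcript levels between genes, since the counts are not set per length.

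At the other end stood factors seen in few nuclei. Nkx2-2, a homeodomain factor of ventral progenitors, was found in 8 of 11040 US- and 20 of 9912 US+ nuclei. Six6, a sine oculis factor of the eye field and ventral hypothalamus, was found in 0.0996% (0.0498 to 0.178%) and 0.333% (0.229 to 0.467%). Ebf3, an early B-cell factor, was at 0.380% and 0.333%, Skor2, a corepressor of the SKI family, at 0.326% and 0.424%, and Onecut3, a cut-homeodomain factor, at 0.417% and 0.626%. At these shares a few nuclei decide a value. In US- the intervals of Nkx2-2 and Six6 lay under those of the other 3, and in US+ those of Nkx2-2, Six6 and Ebf3 lay under that of Onecut3.

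Free RNA in the droplets can give UMIs in nuclei that do not express a gene, so each share was set beside a type of nucleus that should lack the factor. For the 5 factors that should be absent from glutamatergic nuclei (Lhx6, Lhx8, Dlx1, Dlx5 and Dlx6), the share over all nuclei lay above that reference in both libraries. Lhx8 was seen in 5.15% of US- nuclei against 0.417% (0.0860 to 1.21%) of glutamatergic ones, and in 3.31% of US+ nuclei against 0.344% (0.0711 to 1.00%), and the median depth of these glutamatergic nuclei was 7778 and 7928 UMIs before thinning. Of the 16 factors set against striatal-type nuclei, 2 lay above the reference in both libraries. The oligodendrocyte-type nuclei used for the other 26 numbered 23 and 112, with median depths of 3778 and 8764 UMIs, and none of the 26 factors lay above them in both libraries. These nuclei held neuronal factors too, Rarb in 30.4% and 15.2% and Zfhx4 in 4.35% and 30.4%, and more Nfia than all nuclei did (39.1% and 25.9%), so they gave no clean reference. For 39 of the 47 factors the share differed between GABAergic and glutamatergic nuclei, or between striatal-type and other nuclei, in the same direction in both libraries with intervals that did not overlap. The other 8 (Meis1, Nkx2-1, Nkx2-2, Six6, Bnc2, Onecut3, Prox1 and Hmx2) did not, and no expression is read from their shares. The rule was not applied to all genes, so the count of 39 does not set the factors apart from other genes.

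Between transmitter classes, 44 of the 47 factors had at least 100 UMIs over both classes in each library and were compared as the ratio of CPM in glutamatergic over GABAergic nuclei. A ratio of at most 0.5 in both libraries was found for 17 factors, where 1.58% of all 15488 genes compared went that way, and a ratio of at least 2 in both for 8 factors, where 0.833% of all genes did. The members were gathered as identity genes with earlier results in view, so these counts describe the set. The median ratio over the factors was 0.620 in US- and 0.790 in US+, beside 1.09 and 1.05 over all genes. The 3 factors not compared were Nkx2-2, Six6 and Skor2.

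**Figure D2:**
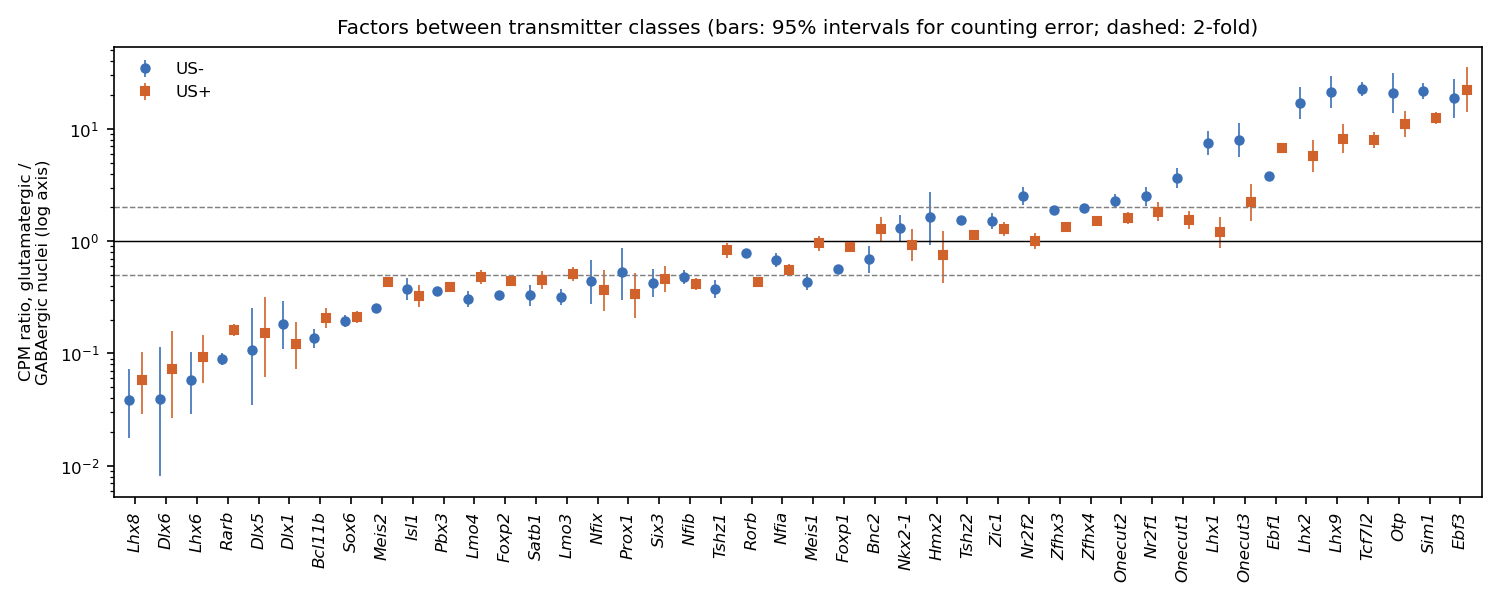
Ratio of CPM in glutamatergic over GABAergic nuclei for the 44 factors compared, on a log axis, in US- (circles) and US+ (squares), with exact 95% intervals for counting error and dashed lines at 2-fold in either direction. Lhx8, Dlx6 and Lhx6 lie farthest to the GABAergic side, and Sim1, Otp and Ebf3 are above 10 in both libraries.

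The DLX family lay on the GABAergic side. Dlx1 stood at 15.9 CPM in GABAergic and 2.92 CPM in glutamatergic nuclei of US- and at 21.1 and 2.58 CPM in US+, ratios of 0.183 and 0.122. Dlx6 was at 12.4 against 0.486 CPM and 11.3 against 0.815 CPM, and Dlx5 at 7.52 against 0.810 CPM and 6.21 against 0.951 CPM. Dlx5 and Dlx6 are neighbours on chromosome 6 (6877805 to 6882085 and 6863334 to 6868568 on GRCm38). Dlx1 and Dlx6 overlap antisense genes with more UMIs than they have themselves, 13417 UMIs of Dlx6os1 against 1060 of Dlx6 in US-. The study's methods state default settings of the counting program, which keep the strands apart, but this was not checked on the reads.

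LIM-homeodomain factors split between the classes. Lhx8, needed for cholinergic neurons of the basal forebrain, was at 38.0 against 1.46 CPM in US- and 25.9 against 1.49 CPM in US+, ratios of 0.0384 (0.0176 to 0.0730) and 0.0577 (0.0288 to 0.104). Lhx6, which maintains neurons born in the medial ganglionic eminence, had ratios of 0.0575 (0.0287 to 0.103) and 0.0928 (0.0548 to 0.147). Isl1, used by striatal and arcuate neurons among others, was at 33.1 against 12.5 CPM and 33.0 against 10.7 CPM. Lhx2 and Lhx9, a pair of close relatives known from thalamic and tuberal progenitors, went the other way: Lhx2 had ratios of 16.9 (12.2 to 23.6) and 5.79 (4.17 to 8.00), and Lhx9 of 21.2 (15.4 to 29.5) and 8.15 (6.04 to 11.0). Lhx1 was higher in glutamatergic nuclei of US-, 17.7 against 2.35 CPM, but in US+ stood at 6.52 against 5.45 CPM, so it did not pass in both.

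The factors that act beside Lhx6 in neurons of the medial ganglionic eminence were also GABAergic. Sox6, an SRY-type factor needed for their positioning, had ratios of 0.195 (0.171 to 0.221) in US- and 0.210 (0.186 to 0.237) in US+, and Satb1, a chromatin organizer of somatostatin interneurons, 0.332 and 0.452. Another 6 factors, known from the striatum and its origin in the lateral eminence, also lay on this side, and striatal-type nuclei made up 29.4% of GABAergic and 7.50% of glutamatergic nuclei in US- and 14.0% and 6.32% in US+. Rarb, a retinoic acid receptor, had the lowest ratios among them, 0.0895 (0.0796 to 0.100) and 0.161 (0.142 to 0.183). Bcl11b, which drives striatal projection neurons, had 0.136 and 0.208, Meis2 0.255 and 0.428, Lmo4 0.307 and 0.479, Foxp2 0.332 and 0.445, and Pbx3 0.361 and 0.387. Six3, a patterning factor of the anterior forebrain, had 0.427 and 0.463. Nfib and Nfix, nuclear factor I proteins of late neuronal and glial differentiation, had 0.482 and 0.415 and 0.444 and 0.370, close to the limit of 0.5. Without striatal-type nuclei 20 of the 25 calls on both sides were kept: Meis2 stood at 0.480 and 0.751, Lmo4 at 0.412 and 0.589, Foxp2 at 0.448 and 0.605 and Six3 at 0.564 and 0.517, and Otp then had too few UMIs to be compared.

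On the glutamatergic side, Tcf7l2 had the highest ratio in US- and Ebf3 in US+, and the genes of the paraventricular and supraoptic programme were above 10 in both. Sim1, a bHLH-PAS factor without which those nuclei do not form, was at 70.5 against 3.26 CPM in US- and 107 against 8.58 CPM in US+, ratios of 21.6 (18.5 to 25.4) and 12.5 (11.1 to 14.0). Otp, a homeodomain factor acting in parallel with Sim1, was at 10.7 against 0.515 CPM and 19.4 against 1.76 CPM, ratios of 20.8 and 11.0. Ebf3 had ratios of 18.7 (12.6 to 28.0) and 22.1 (14.2 to 35.3), and its relative Ebf1 3.79 and 6.79. Tcf7l2, a Wnt effector prominent in thalamic neurons, had 22.6 (19.6 to 26.1) and 7.94 (6.79 to 9.29). Onecut3 had 7.99 and 2.23, and its relatives Onecut1, with 3.65 and 1.55, and Onecut2, with 2.27 and 1.62, passed 2 in US- alone.

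Most glutamatergic nuclei held no UMI of any 1 of these factors at this depth. For Sim1, 10.3% of thinned glutamatergic US- nuclei and 14.1% of US+ ones held a UMI, against 0.515% and 1.31% of GABAergic nuclei. Ebf1 was seen in 10.8% and 24.0% of glutamatergic nuclei, Tcf7l2 in 8.89% and 5.86%, and Otp, Lhx2, Lhx9 and Ebf3 each in under 4% in each library. For 6 of the 8 factors the ratio was lower in US+ than in US-, and for Ebf1 and Ebf3 it was higher.

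The remaining 19 factors compared passed neither limit in both libraries. Of these, 7 (Zfhx3, Zfhx4, Tshz2, Zic1, Nr2f1, Onecut1 and Onecut2) were higher in glutamatergic nuclei in both libraries with intervals above 1, between 1.12 for Tshz2 in US+ and 3.65 for Onecut1 in US-. Nr2f2 (COUP-TFII), with 2.52 in US- and 1.00 in US+, shifted between libraries in the way Lhx1 did. Lmo3, Nfia, Prox1, Foxp1, Tshz1 and Rorb were lower in both with intervals under 1, and Meis1, Bnc2, Nkx2-1 and Hmx2 had an interval spanning 1 in at least 1 library. Skor2, left out for its few UMIs, was at 6.00 against 0.290 CPM in US- and at 6.52 against 0.979 CPM in US+.

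A list of 96 other identity factors gave the setting. Of its 47 members with enough UMIs, 5 were higher in glutamatergic nuclei (Lhx5, Sim2, Ebf2, Zic2 and Tbr1) and 9 in GABAergic ones (among them Dlx2, Tshz3, Bcl11a, Pou3f1 and Sp9). Over all genes compared, the shares were 0.833% and 1.58%. The list was chosen with earlier results known, so its counts describe the list. Several of the called factors were relatives of members on the same side. Ebf2 had ratios of 5.74 and 14.6, Sim2 of 6.14 and 5.75, and Dlx2 of 0.0306 and 0.0666.

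Striatal-type nuclei were defined by markers of striatal projection neurons, among them Drd1, Drd2, Adora2a, Ppp1r1b and Pde10a, of which most UMIs came from Pde10a. Of 45 factors compared, 6 were at least 2-fold higher there than in other nuclei in both libraries, where 1.62% of all 16283 genes were, and 5 at most 0.5, where 0.952% were. Rarb was at 1146 against 152 CPM in US- and 687 against 70.8 CPM in US+, ratios of 7.57 (7.40 to 7.73) and 9.71 (9.39 to 10.1), and was seen in 72.3% of thinned striatal-type against 16.2% of other nuclei in US- and in 49.7% against 8.80% in US+. Meis2, a TALE factor of the lateral ganglionic eminence, had ratios of 3.67 and 5.01, Foxp1 of 3.11 and 2.20, Foxp2 of 2.51 and 2.78, Lmo4 of 2.25 and 2.34, and Bcl11b of 2.03 and 2.39. These are the factors of the striatal projection programme. The 5 that were lower, Lhx1, Lhx2, Otp, Ebf3 and Tcf7l2, had been higher in glutamatergic nuclei, Lhx1 by 2-fold in US- alone, and their ratios ran from 0.181 for Ebf3 in US+ to 0.484 for Tcf7l2 in US+. Nuclei of this type held a median of 5 factors in each library, and their median depth was 9382 UMIs in US- and 10589 in US+.

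Combinations of factors were read from how often a pair shared a thinned nucleus, over the number expected were the 2 independent. Of the 1081 possible pairs, 555 had at least 10 expected nuclei in each library. Of these, 15 were at least 2-fold over expectation in both libraries, where 0.00611% of all pairs among 14921 genes of the same range were, and 50 were at most 0.5, where 0.0293% were. Nuclei are cells of 1 library each and most pairs follow cell types, so the counts are descriptions. The 50 low pairs rest on few shared nuclei, and with another random thinning 30 of them passed again, as did 14 of the 15 high ones. The high pairs depend on the depth as well: 7 of the 15 passed again at 5000 UMIs and 7 without thinning.

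**Figure D3:**
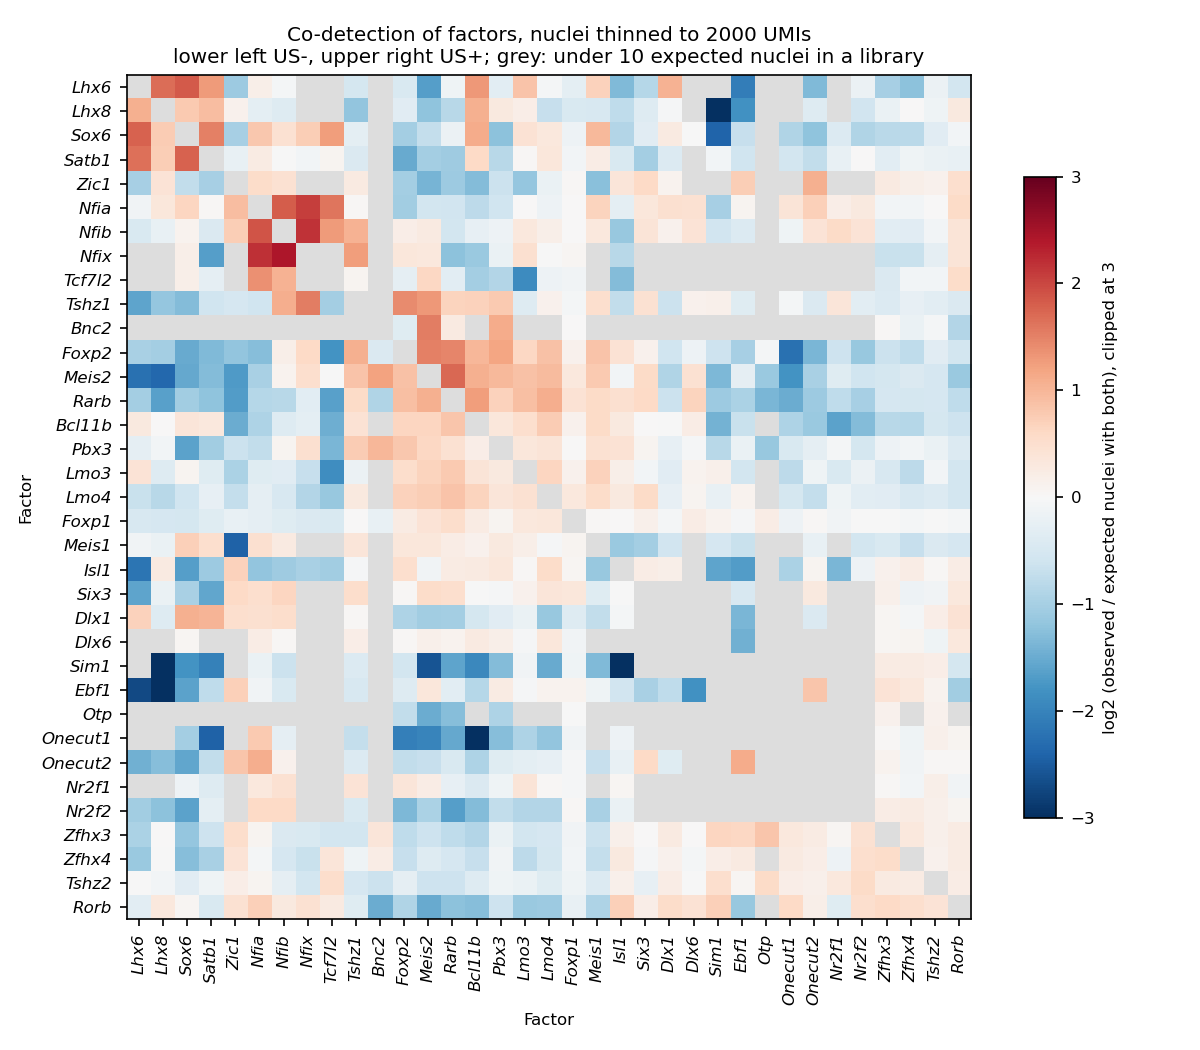
Co-detection of 35 factors as log2 of observed over expected nuclei with both, US- in the lower left and US+ in the upper right triangle; grey marks pairs under 10 expected nuclei in a library, and colours are clipped at 3. Red blocks join Nfia, Nfib and Nfix, join Lhx6 with Lhx8, Sox6 and Satb1, and join Meis2, Rarb, Foxp2 and Bcl11b, while Sim1 and Ebf1 are blue against Lhx8 and Sox6.

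Among the pairs compared, the closest company was kept by the 3 nuclear factor I genes. Some rarer pairs with under 10 expected nuclei stood higher, such as Onecut1 and Onecut3 at 14.5 and 8.49, on 11 and 12 shared nuclei. Nfib and Nfix shared 113 US- nuclei against 21.0 expected and 112 US+ nuclei against 24.8, and 53.3% (46.3 to 60.2%) and 54.4% (47.3 to 61.3%) of the nuclei with Nfix also held Nfib. Nfia and Nfix were at 4.587 and 4.198 times expectation and Nfia and Nfib at 3.72 and 3.53 times. Since astrocytes and oligodendrocytes express these genes and their markers were higher in US+, the ratios were taken again without the oligodendrocyte- and astrocyte-type nuclei, an alternative chosen after seeing the data: Nfib and Nfix stood at 5.51 and 5.03, Nfia and Nfix at 4.36 and 4.40, and Nfia and Nfib at 3.57 and 3.60. Within GABAergic nuclei they stood at 4.97 and 4.28, 4.42 and 3.90, and 3.38 and 3.23. Tshz1 went with this group (Nfix and Tshz1, 2.91 and 2.37), as did Tcf7l2 with Nfia (2.60 and 3.06), but the latter pair stood at 1.10 and 1.46 without the glial-type nuclei.

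The genes of the medial ganglionic eminence formed a group of their own. Lhx6 and Sox6 shared 226 US- nuclei against 66.5 expected and 140 US+ nuclei against 39.4, so 45.4% and 41.3% of nuclei with Lhx6 held Sox6 as well, beside 13.3% and 11.6% of all nuclei. Sox6 and Satb1 shared 296 against 87.3 and 168 against 59.2 nuclei, and Lhx6 and Satb1 93 against 29.5 and 42 against 17.4. Within GABAergic nuclei the 3 ratios were still 3.01 and 3.33, 3.17 and 2.87, and 2.88 and 2.13. Lhx6 and Lhx8 shared 54 US- nuclei against 25.7 expected and 36 US+ nuclei against 11.2, but within GABAergic nuclei the pair stood at 1.91 and 2.70 and no longer passed 2-fold in both.

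Another group held the striatal factors. Meis2 and Rarb shared 2463 US- nuclei against 1171 expected and 751 US+ nuclei against 227, ratios of 2.10 and 3.32. Within GABAergic nuclei this pair stood at 1.945 and 3.126 and did not pass in both. Tshz1 and Foxp2 stood at 2.09 and 2.66, and Bnc2, a basonuclin zinc-finger protein, was found with Meis2 (2.32 and 2.90) and with Pbx3 (2.01 and 2.18): 81.1% of US- and 48.8% of US+ nuclei with Bnc2 also held Meis2. Without the striatal-type nuclei Meis2 and Rarb were at 2.48 and 2.91 and Meis2 and Bnc2 at 3.59 and 3.97, so both pairs were also found in nuclei under the striatal gate.

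The 50 low pairs depend on the depth: 16 of them passed again at 5000 UMIs and 2 without thinning. Of the 50, 15 set a GABAergic against a glutamatergic factor, 10 held 2 GABAergic factors, and the rest held a factor with no call. Lhx8 and Sim1 shared 1 nucleus in each library, against 10.6 and 13.5 expected. Lhx6 and Ebf1 shared 3 and 6 against 19.5 and 25.3, Meis2 and Onecut3 1 and 2 against 16.1 and 10.4, Onecut1 and Foxp2 13 and 7 against 53.5 and 33.0, and Lmo3 and Tcf7l2 7 and 5 against 25.6 and 18.4. Inside the GABAergic class 44 of 442 pairs compared stood at most at 0.5 (0.0255% of all gene pairs) and 9 at 2 or more (0.0026%). There Lhx6 and Meis2 shared 33 nuclei against 170.5 expected in US- and 14 against 55.2 in US+, and Meis2 and Nkx2-1 7 against 53.3 and 3 against 15.4. In glutamatergic nuclei 92 pairs could be compared, and 1 passed 2-fold, Pbx3 and Foxp2 at 2.04 and 2.33 (8.14e-05% of all gene pairs), while 0 stood at 0.5 or under (0.00767%).

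Relatives within a family did not share one pattern. Of 33 such pairs 11 could be compared, and 8 were over 1 in both libraries, as were 198 of the 555 pairs of all members compared. This share was not taken over all gene pairs. The 4 at 2 or more were the 3 nuclear factor I pairs and Lhx6 with Lhx8, the last of which did not pass within GABAergic nuclei. Zfhx3 and Zfhx4 stood at 1.47 and 1.24, Lmo3 and Lmo4 at 1.38 and 1.57, Meis1 and Meis2 at 1.27 and 1.72, and Foxp1 and Foxp2 at 1.19 and 1.10. A factor found in many nuclei bounds the ratio of its pairs, so these ratios are not ranked. Of nuclei with Zfhx4, 64.5% and 77.1% held Zfhx3. Tshz1 and Tshz2 were under 1, at 0.708 and 0.803. Lhx6 and Isl1 shared 6 nuclei against 27.6 expected in US- and 7 against 17.4 in US+, the 1 family pair at most at 0.5 in both, whereas Lhx8 and Isl1 differed between libraries, at 1.21 and 0.593. The ONECUT pairs fell short of 10 expected nuclei, yet Onecut1 and Onecut2 shared 55 nuclei against 6.96 expected in US- and 51 against 11.8 in US+, and 23.9% and 19.4% of the few nuclei with Onecut3 held Onecut1. Nuclei with both Lhx6 and Lhx1, or both Lhx6 and Lhx2, numbered 0 in each library, against 4.51 and 4.24 and 2.30 and 2.19 expected.

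Neuropeptides, enzymes and receptors were then set beside the factors in the same nuclei. Both lists were chosen with earlier results of these data known, so the counts describe the lists. Of 27 identity markers, 19 had at least 30 nuclei with 3 or more UMIs in each library. Of the 257 combinations of a marker and a factor with at least 10 shared nuclei in each library, 31 had a factor share at least 2-fold over that of all nuclei in both, where 0.741% of the 85338 combinations of a marker and any gene did.

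**Figure D4:**
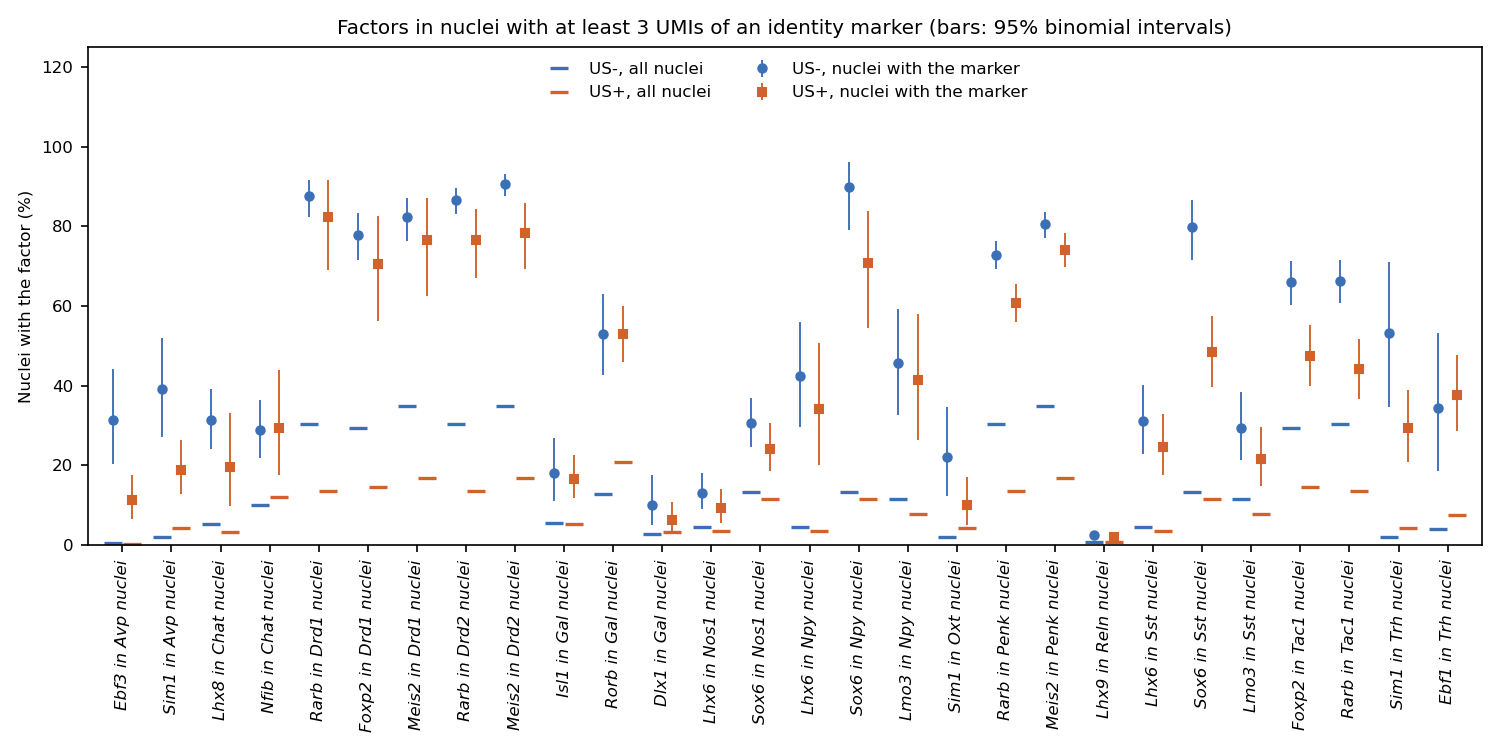
Share of nuclei with a factor (thinned to 2000 UMIs, in percent) among nuclei with at least 3 UMIs of an identity marker, for US- (circles) and US+ (squares) with exact 95% binomial intervals; dashes give the share over all nuclei of that library. The combinations shown are the highest of each marker that were at least 2-fold over all nuclei in both libraries, such as Sox6 in Npy nuclei at 89.8% and 70.7%.

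Nuclei with neurosecretory peptides held Sim1 more often than all nuclei did. Of nuclei with Avp (vasopressin), 39.1% (25 of 64) in US- and 18.9% (27 of 143) in US+ held Sim1, and 31.3% (20 of 64) and 11.2% (16 of 143) held Ebf3, a factor seen in 0.380% and 0.333% of all nuclei. Nuclei with Trh (thyrotropin-releasing hormone) held Sim1 in 53.1% (34.7 to 70.9%) and 29.2% (20.8 to 38.9%), and Ebf1 in 34.4% and 37.7%. For Oxt (oxytocin) the share with Sim1 was 22.03% (12.3 to 34.7%) and 9.91% (5.05 to 17.04%). Foxp2 was in more Avp nuclei (53.1% and 32.2%) and more Oxt nuclei (52.5% and 36.0%) than Sim1. In US- these Foxp2 shares were 1.81 and 1.79 times that of all nuclei. Foxp1 was in 61.0% and 63.1% of Oxt nuclei, 1.28 and 1.45 times its share over all nuclei. Avp, Trh and Oxt are abundant peptides, and whether free RNA added to their nuclei was not tested. With at least 10 UMIs of the marker, 5 combinations of all markers passed 2-fold.

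Interneuron peptides went with the medial eminence group. Npy (neuropeptide Y) nuclei held Sox6 in 89.8% (79.2 to 96.2%) and 70.7% (54.5 to 83.9%) and Lhx6 in 42.4% and 34.1%, and Sst (somatostatin) nuclei held Sox6 in 79.8% and 48.5% and Lhx6 in 31.1% and 24.6%. Lmo3, a LIM-only protein, was in 45.8% and 41.5% of Npy nuclei and in 29.4% and 21.5% of Sst nuclei. Nos1 (neuronal nitric oxide synthase) nuclei held Lhx6 in 13.1% and 9.18% and Sox6 in 30.6% and 24.2%. Lhx8 was in 31.3% (24.2 to 39.0%) of the 160 US- and 19.6% (9.82 to 33.1%) of the 51 US+ nuclei with Chat (choline acetyltransferase), 6.06 and 5.93 times its share over all nuclei, and these nuclei also held Nfib in 28.8% and 29.4%.

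Striatal markers and their peptides went with the Meis2 and Rarb group. Nuclei with Drd1 (dopamine receptor D1) held Rarb in 87.5% and 82.4%, Foxp2 in 77.9% and 70.6% and Meis2 in 82.2% and 76.5%. Drd2 nuclei held Meis2 in 90.6% and 78.4% and Rarb in 86.5% and 76.5%. Penk nuclei held Meis2 in 80.5% and 74.1%, and Tac1 nuclei held Foxp2 in 65.9% and 47.5%. Drd1 and Drd2 belong to the striatal gate as well, so these values and those of the striatal-type nuclei are not independent.

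The other markers differed in how closely a factor went with them. Gal (galanin) nuclei held Rorb, a retinoid-related orphan receptor, in 53.0% (42.8 to 63.1%) and 52.9% (45.9 to 60.0%). That was 4.185 and 2.554 times its share over all nuclei. Isl1 was in 18.0% and 16.7% of Gal nuclei, 3.25 and 3.24 times its share over all nuclei. Nuclei with Esr1 (oestrogen receptor alpha) held Nr2f2 in 4.42% and 7.96%, Dlx1 in 5.85% and 4.89% and Hmx2 in 2.28% and 1.34%, none of them 2-fold over all nuclei in US+. In Reln (reelin) nuclei Lhx9 led, at 2.51% and 1.97%, 3.18 and 2.71 times its share over all nuclei. For Calcr (calcitonin receptor) the leading factor was Sim1, in 3.64% and 10.1%. That was 1.949 and 2.45 times its share over all nuclei, so it fell short of 2-fold in US-. Nuclei with Opn5, Nts, Ptger3 or Cartpt had no factor at 2-fold in both libraries among those 3 highest.

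Between the libraries, 46 of the 47 factors had enough UMIs to compare (Nkx2-2 had 25 and 50). Summed over all nuclei, 12 were at least 1.5-fold higher in US+, where 6.01% of all 18424 genes were, and 9 were at least 1.5-fold lower, where 2.83% were. The median ratio of US+ over US- was 1.10 over the factors and 1.04 over all genes. With 1 library per condition these values compare the 2 libraries, in which treatment, pooled mice and dissection cannot be told apart, and a sum over all nuclei does not separate fewer nuclei of a type from less RNA in each.

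**Figure D5:**
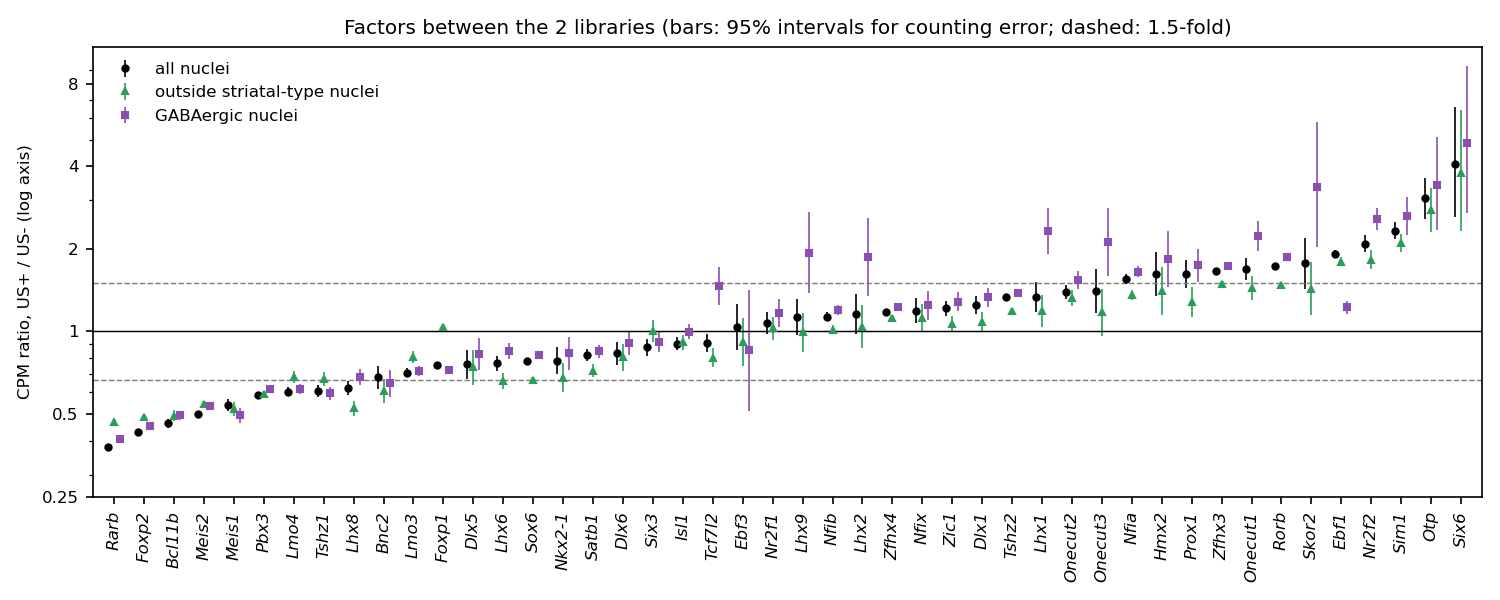
Ratio of CPM in US+ over US- for the 46 factors compared, on a log axis, over all nuclei (circles), over nuclei outside the striatal type (triangles) and over GABAergic nuclei (squares), with exact 95% intervals for counting error and dashed lines at 1.5-fold in either direction. Rarb (0.380 over all nuclei) and Foxp2 (0.431) stand at the low end, and Sim1 (2.33), Otp (3.05) and Six6 (4.08) stand at the high end.

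Of the 9 factors lower in US+, 5 (Rarb, Foxp2, Bcl11b, Meis2 and Lmo4) were among the 6 that were higher in striatal-type nuclei, and the other 4 were not. Rarb had 457 CPM in the US- and 174 CPM in the US+ library, a ratio of 0.380 (0.373 to 0.387), Foxp2 had 439 and 189 CPM (0.431), Bcl11b at 116 and 53.4 CPM (0.462), Meis2 at 540 and 269.9 CPM (0.4995), Pbx3 at 345 and 203 CPM (0.587) and Lmo4 at 78.8 and 47.5 CPM (0.602). Meis1 had a ratio of 0.540, Tshz1 of 0.606 and Lhx8 of 0.621. The remaining striatal-type factor, Foxp1, had a ratio of 0.756. Outside the striatal-type nuclei 9 factors were lower (1.87% of all genes), 7 of them also lower over all nuclei: Rarb at 0.467, Foxp2 at 0.487, Bcl11b at 0.493, Meis1 at 0.522, Lhx8 at 0.524, Meis2 at 0.544, and Pbx3 at 0.593. The other 2 were Bnc2 at 0.607 and Lhx6 at 0.660, and Lmo4 and Tshz1 no longer passed. Within striatal-type nuclei, 5 were lower (4.9% of all genes), with Foxp2 at 0.539, Bcl11b at 0.581, Tshz1 at 0.596, Rarb at 0.600 and Meis1 at 0.638.

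The factors higher in US+ were led by those of the hypothalamus. Six6 rested on 26 and 91 UMIs, with a ratio of 4.08 (2.61 to 6.57), and lies antisense to a gene with 6431 and 7639 UMIs. Otp was at 1.86 and 5.68 CPM, a ratio of 3.05 (2.57 to 3.64), and Sim1 at 12.5 and 29.0 CPM, a ratio of 2.33 (2.176 to 2.498). Nr2f2 had a ratio of 2.09, Ebf1 of 1.91, Skor2 of 1.77, Rorb of 1.74, Onecut1 of 1.69, Zfhx3 of 1.65, Prox1 and Hmx2 of 1.62 and Nfia of 1.55. Hmx2, with 199 and 276 UMIs, lies antisense to Fgfr2, which had 64336 and 68174. Nfia was at 1.47 without the oligodendrocyte- and astrocyte-type nuclei, and the astrocyte and oligodendrocyte lists that were higher in US+ move with it. Their part in the other ratios was not tested beyond leaving out the nuclei of those types, which kept 20 of the 21 calls.

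Outside the striatal-type nuclei 5 factors stayed at 1.5-fold or more (4.27% of all genes did): Six6 at 3.78, Otp at 2.76, Sim1 at 2.09, Nr2f2 at 1.82 and Ebf1 at 1.79. The other 7 stood between 1.28 for Prox1 and 1.49 for Zfhx3. In all, 12 of the 21 calls were kept outside the striatal type. Of the nuclei with Otp after thinning, 74.2% were US+, and of those with Sim1 66.5%, where US+ made up 47.3% of all nuclei.

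Within GABAergic nuclei 14 of 43 factors were higher in US+ (5.4% of all genes) and 9 lower (3.08%), and within glutamatergic nuclei 3 of 35 were higher (1.83%) and 6 lower (1.06%). The 3 were Ebf1 at 2.19 (2.03 to 2.37), Otp at 1.82 (1.35 to 2.47) and Sim1 at 1.52 (1.35 to 1.71). The 6 were Lhx1 at 0.369, Tcf7l2 at 0.514, Nkx2-1 at 0.597, Foxp2 at 0.603, Lhx2 at 0.636 and Pbx3 at 0.665. Of the 9 factors lower in GABAergic nuclei, 8 were lower over all nuclei too, and the ninth was Bnc2 at 0.646. In striatal-type nuclei 11 of 38 were higher (6.44% of all genes), Prox1 at 4.73 (3.203 to 7.09) and Rorb at 2.80 (2.62 to 3.00) among them. Nr2f2 at 2.67, Sim1 at 2.66 and Onecut1 at 2.59 were higher there too, and Sim1 stood at 2.63 in GABAergic nuclei. Of thinned striatal-type nuclei, the reference for free RNA of Sim1, 0.789% in US- and 2.50% in US+ held it. Whether free RNA had a part in these library ratios was not tested.

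Of the 96 other identity factors, 66 could be compared over all nuclei, and 13 were higher (6.01% of all genes) and 6 lower (2.83%) in US+. Among the nuclei left out for holding under 2000 UMIs, 623 in US- and 1987 in US+, the summed level of the 47 factors was 4299 and 4070 CPM, beside 4469 and 3905 CPM in the kept nuclei.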

How the data were processed

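The files deposited by the authors are matrices of raw counts (UMIs of each gene in each nucleus), for which the labels name Cell Ranger 6.1.1 and the mm10 build. The study's methods state default settings, which in that version count sense-strand reads and leave out introns. This was not checked on the reads. Nuclei were filtered as stated in the report, and nuclei under 2000 UMIs were left out so that all could be thinned to 2000 UMIs. Doublets were not called; the 9% of nuclei with the most UMIs were left out as an alternative. Shares carry exact binomial, and CPM ratios exact conditional Poisson, 95% intervals (Python 3.11.15, numpy 2.4.6, scipy 1.17.1, pandas 2.3.3, matplotlib 3.10.9), for counting error only. A gene was compared with at least 100 UMIs over both sides. Other scalings used edgeR 4.0.16 (TMM) and DESeq2 1.42.0 (size factors) in R 4.3.3, with no test. On simulated data of 18413 genes, the comparison of libraries called 100% of genes changed 2-fold and 0.22% of unchanged ones, that of transmitter classes called 97.9% of genes changed 3-fold over 15658 genes, and 0 of 608 independent pairs were called. The simulated counts held counting error only, with no differences between pools or dissections or in the mix of cell types. The 0.22% is therefore no rate of false calls for these libraries. Positions are from GENCODE M21 on GRCm38 and promoters from RefSeq on GRCm38.p6. The members, the lists of markers and other identity factors, and the limits were chosen with earlier results of these data known. All members may be named. Full values were given to the 5 highest and 5 lowest shares, to factors past a limit, to the 10 highest and 5 lowest pairs, to compared relatives, and to the 3 leading factors of each identity marker. Animals were pooled, so no mouse can be traced. Some genes of the lists are not named here.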

Additional observations from a re-analysis of the deposited data

Results flagged for a closer look

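For 3 factors the ratio of US+ over US- was past 1.5-fold in opposite directions in the transmitter classes. Lhx1 was at 2.32 (1.92 to 2.81) in GABAergic and 0.369 (0.257 to 0.523) in glutamatergic nuclei. Lhx2 was at 1.86 (1.34 to 2.59) and 0.636 (0.458 to 0.879). Onecut3 was at 2.11 (1.59 to 2.82) and 0.590 (0.379 to 0.910), the latter on fewer than 100 UMIs. Lhx9 (1.94 and 0.744), Tcf7l2 (1.46 and 0.514), Tshz1 (0.595 and 1.32), Foxp1 (0.722 and 1.12) and Zfhx4 (1.23 and 0.926) also lay on opposite sides of 1 with intervals that left out 1, but not past 1.5-fold in both. The rule was not applied to all genes, so these counts do not set the factors apart from other genes. These differences between classes were not tested, since each class of each condition was 1 library. The share of nuclei with both transmitter signals, which the classes leave out, was 6.17% in US- and 9.47% in US+, and its part in these ratios was not tested.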

How the results depend on the processing

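No paired analysis was possible because each condition was 1 library, and for the same reason no replicate could be left out. Counts of factors past a limit were retaken under each alternative. Of the 8 factors higher in glutamatergic nuclei, 5 passed on thinned counts, 2 with the classes set on thinned counts and 3 with classes set at 2 UMIs; under these settings fewer factors reached 100 UMIs, and all 8 ratios stayed over 2 except that of Onecut3 in US+, at 1.63 and 1.54 under the first and second. Over both sides, 18 of the 25 class calls were kept on thinned counts. With the classes set on thinned counts 14 were kept, and with classes set at 2 UMIs 20. Without striatal-type nuclei, 5 factors were higher in US+ and 33 pairs were low. With at least 30 expected nuclei, 6 high and 26 low pairs were left. Unthinned, 7 of the 15 high and 2 of the 50 low pairs passed again, although 21 and 40 pairs passed in all. At 5000 UMIs, 7 of the 15 high and 16 of the 50 low pairs passed again, so both sets depend on the thinning. With 2 of 8 striatal markers, 55.6% of US- and 44.3% of US+ nuclei were striatal-type, with 3 factors higher and 1 lower; with 4 of 8, 11.1% and 3.38%, with 21 lower. With at least 10 UMIs of a marker, 5 combinations passed. The median number of factors per nucleus was 8 in each library unthinned, and 7 in US- and 6 in US+ at 5000 UMIs. Of the values retaken under the alternatives, 827 were classed as the same and 234 as moved. No direction changed in a value that had passed a limit, but the size of many values depended on the setting. Leaving out glial-type nuclei was chosen after seeing the data and kept 20 of 21 library calls, 25 of 25 class calls and 12 of 15 high pairs. Factors with few UMIs, such as Nkx2-2 and Six6, are limited by depth, and with 1 library per condition no value separates ultrasound from the pool.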
